A study of Rattus norvegicus with 9 samples.

Results

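The 5 genes described here, Sema4b, Rab7b, Slc16a9, Grm8 and Tnni1, were chosen by their large falls in signal after raised potassium in rat adrenal zona glomerulosa cells. They are 5 of the 14217 genes that carried a symbol of their own on the array, and 9 of 20826 such probe sets measured them. Sema4b and Slc16a9 had 1 probe set each, Rab7b and Tnni1 had 2 and Grm8 had 3. Because the difference between potassium and control chose the genes, it is given below as a description and without a test.

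Cells were dispersed from rat adrenal zona glomerulosa with enzymes and mechanical force, and each of 3 independent preparations was divided into 3 tubes. The control tube was kept in basal medium with serum albumin for 2 h at 37 °C, the Ang II tube received the peptide angiotensin II at 100 nM in that medium, and the potassium tube received potassium at 16 mM. Each tube gave 1 Affymetrix rat expression array, so that there were 9 arrays and 3 per group. The age, sex and strain of the rats and how many animals went into a preparation are not stated in the labels.

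Zona glomerulosa cells form the outer layer of the adrenal cortex and make aldosterone. Potassium depolarises them and opens voltage-gated calcium channels, whereas Ang II acts through a G protein-coupled receptor that releases calcium from stores and activates protein kinase C. Both stimuli raise aldosterone output. The 5 genes come from unrelated families. Sema4b encodes a membrane-bound semaphorin, a class of cell-surface guidance signals read by plexin receptors. Rab7b encodes a small GTPase of late endosomes and the trans-Golgi network, Slc16a9 a member of the monocarboxylate transporter family, Grm8 a glutamate receptor that lowers cyclic AMP through inhibitory G proteins, and Tnni1 the slow skeletal muscle form of troponin I, the inhibitory subunit of the troponin complex.

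The RefSeq promoter table of assembly GRCr8 held a window for 4 of the 5 genes, each running from 250 bases before an annotated start to 50 bases from it. The windows of Sema4b and Rab7b are shown because these were the genes whose response to Ang II differed most clearly from that to potassium. Capitals mark the letters of a motif that was found. The Sema4b window is chr1:143558547-143558846 (plus strand) and the Rab7b window is chr13:45673195-45673494 (plus strand).
Sema4b: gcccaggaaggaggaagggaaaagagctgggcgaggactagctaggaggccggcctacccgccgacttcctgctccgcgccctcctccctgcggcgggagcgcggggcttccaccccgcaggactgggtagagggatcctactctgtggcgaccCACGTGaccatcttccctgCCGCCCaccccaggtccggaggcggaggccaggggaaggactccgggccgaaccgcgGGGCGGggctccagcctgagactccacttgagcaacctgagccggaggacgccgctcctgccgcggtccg
Rab7b: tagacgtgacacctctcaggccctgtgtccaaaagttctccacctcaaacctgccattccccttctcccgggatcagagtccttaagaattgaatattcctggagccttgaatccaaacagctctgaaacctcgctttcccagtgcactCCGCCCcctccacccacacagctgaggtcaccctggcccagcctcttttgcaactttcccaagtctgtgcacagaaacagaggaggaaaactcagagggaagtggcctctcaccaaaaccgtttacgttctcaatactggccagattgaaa

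In the Sema4b window the E-box letters CACGTG stood at base -96 from the start, and the GC box letters GGGCGG at -20 and, on the opposite strand, at -77. The Rab7b window held 1 GC box, on the opposite strand at -101. An E-box was found in 6.42% and a GC box in 33.1% of the 33469 windows of the table. The windows of Grm8 (chr4:57687457-57687756, minus strand) and Tnni1 (chr13:49781279-49781578, plus strand) held none of the 8 motifs searched. Those were, on both strands, the E-box, the GC box, the full cyclic AMP response element TGACGTCA and the shorter TGACG contained in it, the Nr4a receptor site AAAGGTCA, the TATA box TATAAA, the AP-1 site TGACTCA and the CCAAT box. The shorter element was present in 21.2%, the Nr4a site in 1.43%, the full element in 1.83%, the AP-1 site in 4.63%, the TATA box in 14.2% and the CCAAT box in 37.5% of all windows. These matches describe letters in 1 window per gene, and other start sites were not searched. The Sema4b window was rich in G and C (71.3%, against a median of 51.7% over all windows), while those of Rab7b (52.0%), Tnni1 (58.0%) and Grm8 (47.3%) were not set apart in this way.

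Signals were compared as log2(signal + 16), a scale on which changes of weak signals come out too small. With 3 arrays per group, their number limits the precision. Array medians ran from 128 to 173, with the highest in the control tube of preparation 2 and the next, 144, in the Ang II tube of that preparation. Of 31042 probe sets that were not controls, 18625 with the higher mean signals were tested with limma, and a probe set is called when its p-value, adjusted over all of them by the Benjamini-Hochberg method, is under 0.05. The choice of scaling moved the balance of calls. Of the probe sets called after potassium 48.1% were lower, but 36.8% with each array centred on its median and 19.7% after scaling every array to the same median over all probe sets, which moved the median log2 change of all tested probe sets from -0.02 to 0.10. The same scaling took the lower share from 24.2% to 7.11% for Ang II against control and from 23.7% to 11.9% for Ang II against the mean of control and potassium. The labelled cell type was checked on 16 markers of zona glomerulosa, 15 of which were measured, and mean control signals of Star, Cyp11a1, Hsd3b1 and Cyp21a1 lay between 18873 and 25199. These 4 genes serve steroid synthesis in the neighbouring zona fasciculata as well, and Cyp11b2 was not analysed here. The other measured markers of the list were weaker in controls and varied widely. Dab2 was at 11700 and Wnt4 at 5359, but Kcnk9 was at 105, Kcnj5 at 88.1 and Shh at 76.7. Kcnj5 was the 1 marker of the list below the filter. Summed signals of markers of other cells were also well above 0 in the controls, from 32753 to 39265 for 3 measured genes of zona fasciculata (among them Akr1b7 at a mean of 28312), from 20685 to 25714 for 6 measured genes of endothelium, from 12280 to 15400 for 12 genes of macrophages and dendritic cells, and from 2515 to 3455 for 10 genes of medulla and neurons. Cells of the 2 zones cannot be told apart by these values. In such a mixture fewer cells of a type and less RNA per cell cannot be told apart.

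Sema4b had the most even response of the 5 genes. Its control signals were 2275, 2837 and 2398 in preparations 1, 2 and 3, the Ang II signals 1905, 2406 and 2123, and the potassium signals 714, 909 and 820. All potassium tubes lay far below all others, and the Ang II tubes were slightly below the control tube of their own preparation. Potassium left 32.5% of the mean control signal, a difference of -1.60 ± 0.08 on the log2 scale (SE of the fit), with differences of -1.65, -1.63 and -1.53 in the preparations. Ang II left 85.7%, a log2 difference of -0.22 ± 0.08. The Ang II signals were lower than control in 3 of 3 preparations, although the ranges overlapped.

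The mean control signal of Rab7b was 3.33 times that after potassium. At the probe set with the smallest p, controls gave 1112, 1591 and 1558, Ang II tubes 1578, 1573 and 1013, and potassium tubes 494, 368 and 417. The control and Ang II ranges overlapped almost fully, and the highest potassium signal was well under the lowest of either. The log2 difference between potassium and control was -1.69 ± 0.17, and the preparations gave -1.14, -2.07 and -1.86. The log2 difference between Ang II and control was -0.04 ± 0.17, with 2 of 3 preparations lower (0.50, -0.02 and -0.61), and turned to 0.078 when arrays were scaled to the common median.

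The other probe set of Rab7b was dimmer but had the same order. Its controls gave 261, 139 and 162, its Ang II tubes 223, 183 and 98.4, and its potassium tubes 61.2, 72.8 and 104. Potassium tubes were all below control tubes, by -1.07 ± 0.31 on the log2 scale, while the Ang II range overlapped with that of both other groups.

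Slc16a9 was lower after both stimuli, and lower after potassium than after Ang II in each preparation. The control signals were 210, 377 and 193, the Ang II signals 106, 140 and 122, and the potassium signals 83.4, 73.1 and 63.1. No group overlapped with another. Potassium left 28.1% of the control signal (log2 difference -1.58 ± 0.25) and Ang II 47.3% (-0.94 ± 0.25). The potassium differences were -1.19, -2.14 and -1.40 in preparations 1, 2 and 3. The largest was that of preparation 2, whose control was the highest. In 3 of 3 preparations the Ang II tube was below its control. The mean potassium signal of 73.2 was under the level that the filter required, a signal of 81.9.

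The values of Grm8 turned on 1 control tube. At the probe set shown for the gene, controls gave 131, 936 and 210, Ang II tubes 112, 122 and 45.3, and potassium tubes 88.8, 88.8 and 93.8. The control of preparation 2 stood far above the others, and the potassium tubes varied little and lay near the level that the filter required, a signal of 81.9. The mean control signal was 426 ± 444 (SD, n = 3). The log2 difference was -1.57 ± 0.42 for potassium and -1.62 ± 0.42 for Ang II. Without the control tube of preparation 2 that of potassium was -0.88, and without preparation 2 altogether it was -0.76.

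The 2 other probe sets of Grm8 did not pass the filter and showed no such difference. Their control means were 54.0 ± 32.1 and 40.6 ± 29.8 (SD, n = 3), against 53.0 ± 19.1 and 47.1 ± 21.7 after potassium, so that the groups overlapped. Their log2 differences between potassium and control were 0.05 ± 0.44 and 0.27 ± 0.39. In the list of 11 markers of medulla and neurons, cells in which glutamate receptors are at home, 10 were measured, 8 tested and none called after either stimulus. With 5.36% of all tested probe sets called after potassium and 2.2% after Ang II, nothing is read from that count. The summed signal of that list was 2515 to 3455 in controls, 2472 to 3233 after Ang II and 2646 to 3695 after potassium.

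Tnni1 was lower after both stimuli at the 1 probe set that was tested. Controls gave 142, 152 and 186, Ang II tubes 90.8, 99.5 and 80.1, and potassium tubes 53.1, 83.6 and 15.8. Control tubes were above all others, and the potassium tubes were spread so widely that 1 of them lay within the Ang II range. Potassium left 31.7% of the control signal (log2 difference -1.54 ± 0.36) and Ang II 56.3% (-0.73 ± 0.36). The mean potassium signal of 50.8 was under the filter level of 81.9. The potassium tube of preparation 3 carried much of the difference, which was -1.06 without that tube and -0.97 without preparation 3. With a pseudocount of 64 it was -1.01.

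The other probe set of Tnni1 was below the filter, with control signals of 28.4, 49.3 and 107 and potassium signals of 83.1, 22.9 and 35.5. Its groups overlapped and its log2 difference was -0.28 ± 0.47. Skeletal and cardiac muscle markers were mostly near the floor of the arrays. Of 12 measured, 11 were below the filter, and these summed to 391 to 839 in controls, 358 to 594 after Ang II and 314 to 520 after potassium. The exception in this list, a probe set of Myh1, had mean signals of 13007 in controls and 14008 after potassium. Outside this list Mybpc1, the gene of a myosin-binding protein, was as bright, at 13686 in controls and 13027 after potassium. It belongs to the list of troponin and sarcomere genes described below, of which 16 of 39 measured genes were tested. Of the 7 smooth muscle markers, whose cells lie in the capsule and vessel walls, none was called after potassium and 1 was called as higher after Ang II. Over all tested probe sets 5.36% were called after potassium and 1.66% as higher after Ang II, so that nothing is read from these counts. Their sum ran from 6634 to 9305 in controls, from 7353 to 10020 after Ang II and from 6948 to 9041 after potassium. The part of other cells in the values of Tnni1 and Grm8 was not tested.

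**Figure D1:**
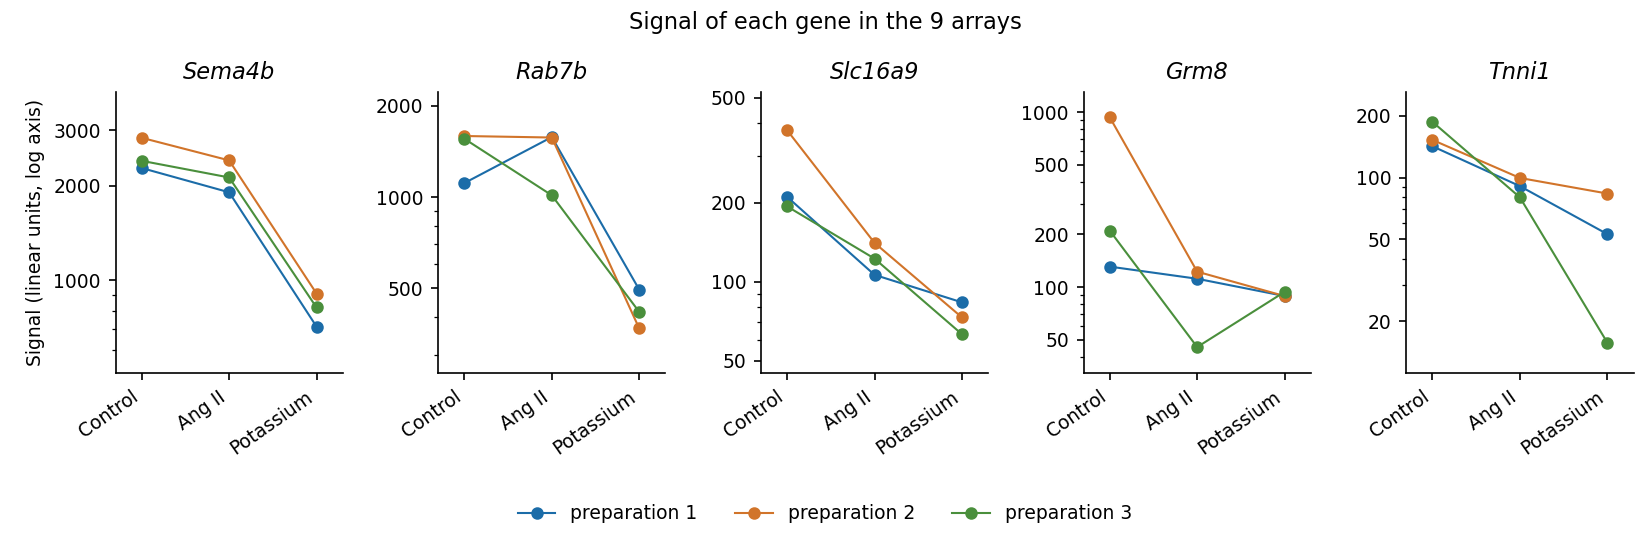
Signal of Sema4b, Rab7b, Slc16a9, Grm8 and Tnni1 (1 probe set per gene, linear signal on a log axis with its own range in each panel) in control, Ang II and potassium tubes, with 1 point per array and a line joining the 3 tubes of a preparation. Potassium points lie below control points in every panel, Ang II points stay near control for Sema4b and Rab7b, and 1 control of Grm8 stands alone at 936.

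At the probe set shown for each of the 5 genes all potassium tubes were below all control tubes. Of all tested probe sets 9.78% showed this separation, while 2.58% were called as lower and 2.78% as higher. Nothing is read from that count, since the same difference chose the genes. As a description, genes were ranked by the size of the difference among 368 called as lower with the same sign in the 3 preparations. Rab7b was at place 1, Sema4b at 4, Slc16a9 at 5, Grm8 at 6 and Tnni1 at 7. The choice used this same difference, so neither these places nor being among the 368 is a test of the 5 genes. Places 2 and 3 belonged to Mapk7 (-1.67 ± 0.37) and Osgin1 (-1.66 ± 0.09). Just outside the chosen genes stood Hmx1 (-1.46 ± 0.33), Trib3 (-1.40 ± 0.16) and Fas (-1.40 ± 0.17), so that the last gene inside and the first outside differed by less than their standard errors. The size of the differences was alike by choice, but their spread over preparations was not. The SD of the potassium difference over the 3 preparations was 0.06 for Sema4b, 0.48 for Rab7b, 0.50 for Slc16a9, 1.0 for Tnni1 and 1.42 for Grm8. That order followed the rank of the mean signal among all probe sets in part, with Sema4b at the 90.2 percentile and Rab7b at 83.5, and Grm8 (50.3), Slc16a9 (49.8) and Tnni1 (41.4) in the middle range. These percentiles bear on precision and are no measure of transcript abundance.

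**Figure D2:**
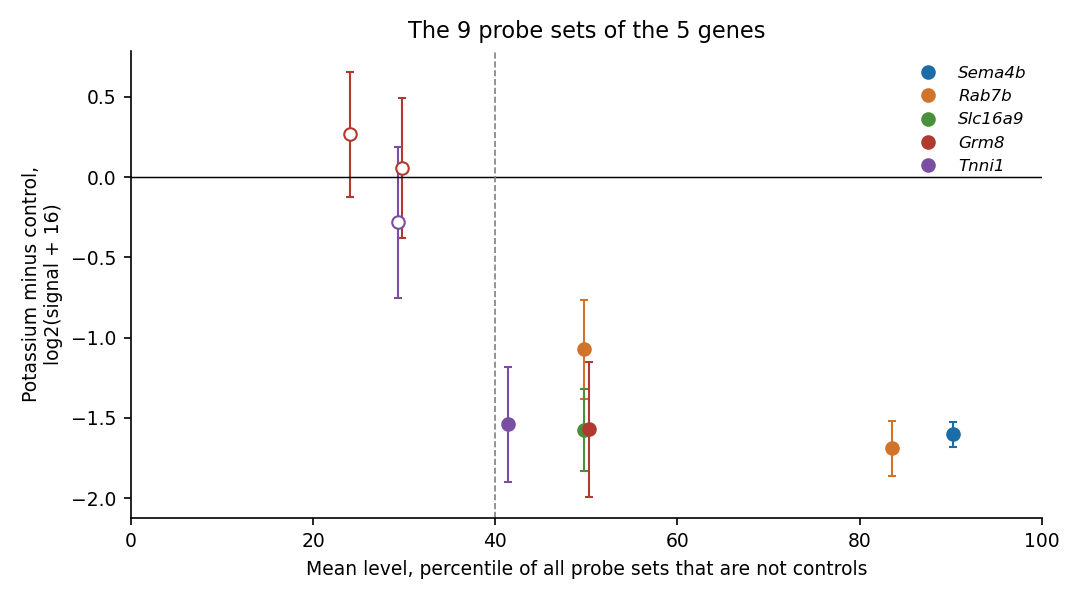
Difference between potassium and control on the log2(signal + 16) scale (vertical axis, error bars SE of the fit) of the 9 probe sets of the 5 genes against the percentile of their mean level (horizontal axis, dashed line at the filter). The 6 tested probe sets (filled) lie between -1.07 and -1.69, and the 3 below the filter (open, 2 of Grm8 and 1 of Tnni1) between -0.28 and 0.27.

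Whether Ang II shared the effect was tested in a way that the choice of genes does not tilt if groups spread alike. The Ang II tubes were set against the mean of the control and potassium tubes. With equal spread this contrast is uncorrelated with the difference between potassium and control in the balanced design. Signal SDs were 444 in controls and 2.9 after potassium for Grm8, and 23.3 and 34.0 for Tnni1. Where the spreads differ, the choice of genes can tilt the contrast. A positive value places Ang II on the control side of the midpoint, a negative value on the potassium side. Sema4b lay on the control side by 0.58 ± 0.07 (95% interval 0.44 to 0.72, adjusted p = 0.00012, limma) and Rab7b by 0.80 ± 0.15 (0.49 to 1.12, adjusted p = 0.0070). These were the 2 of 5 genes called as higher, against 1.91% of all tested probe sets, and none of the 5 was called as lower, against 0.591%. The call of Sema4b held in all 21 alternative settings, with adjusted p-values from 6.8e-05 to 0.050.

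The call of Rab7b was less firm. It ended without preparation 1 (adjusted p = 0.082), without preparation 2 (0.054), without the Ang II tube of preparation 1 (0.11) or of preparation 2 (0.11), and without the trend of variance with intensity (0.22), while the value stayed between 0.67 and 1.04. The other probe set of Rab7b had a value of 0.37 ± 0.27 (adjusted p = 0.60). The probe set shown was picked by its smallest p after potassium. Such a choice favours a small fitted spread, which the midpoint test also uses.

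The other 3 genes were not called on either side of the midpoint. Slc16a9 was at -0.15 ± 0.22 (95% interval -0.62 to 0.32, adjusted p = 0.84) and Tnni1 at 0.04 ± 0.31 (-0.62 to 0.71, adjusted p = 0.97). Grm8 was at -0.84 ± 0.36 (-1.61 to -0.06, adjusted p = 0.31), and at -0.49 without the control tube of preparation 2 and -1.28 without the Ang II tube of preparation 1. A missed threshold does not show where between control and potassium these 3 genes lay after Ang II.

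**Figure D3:**
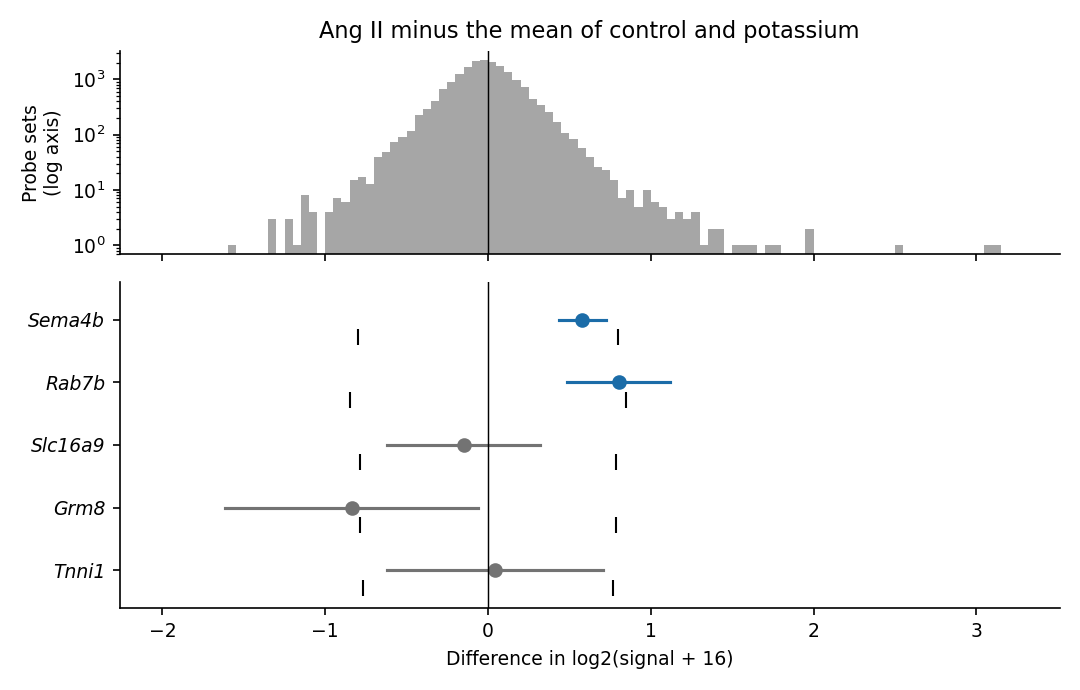
Lower panel, difference between Ang II and the mean of control and potassium on the log2(signal + 16) scale (points, 95% intervals as lines, blue where the adjusted p is under 0.05), with ticks at the fitted potassium level (left) and control level (right) of each gene, drawn without their own error. Upper panel, the same difference for the 18625 tested probe sets (counts on a log axis). Sema4b (0.58) and Rab7b (0.80) lie toward the control tick, Slc16a9 and Tnni1 near 0, and Grm8 is at -0.84 with a wide interval.

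Ang II was also compared with control and with potassium directly. These comparisons share the control or the potassium arrays with the choice of genes and are not independent of it. Against control, none of the 5 was called as lower, against 0.532% of all tested probe sets, or as higher, against 1.66%. The largest differences were those of Grm8 (-1.62, 95% interval -2.52 to -0.73, adjusted p = 0.064) and Slc16a9 (-0.94, -1.48 to -0.39, adjusted p = 0.079), followed by Tnni1 (-0.73, -1.50 to 0.04, adjusted p = 0.38). Sema4b was at -0.22 (-0.39 to -0.06, adjusted p = 0.18) and Rab7b at -0.04 (-0.41 to 0.32, adjusted p = 0.94). The lower ends of these 2 intervals were far smaller in size than the potassium differences of -1.60 and -1.69, which are large by choice. This did not hold at the other probe set of Rab7b, with an interval of -0.83 to 0.49 against a potassium difference of -1.07. The Ang II signals of Slc16a9, Grm8 and Tnni1 lay wholly below the control signals, as did those of 7.75% of all tested probe sets. The difference of Grm8 passed the threshold in 5 of 20 alternative settings: with scaling to the common median (adjusted p = 0.014), without preparation 1 (0.033), without the control (0.0096) or the Ang II (0.045) tube of preparation 1, and without the potassium tube of preparation 2 (0.027). It shrank to -0.93 (adjusted p = 0.32) without the control tube of preparation 2 and to -1.04 (0.26) without preparation 2. That of Tnni1 shrank to -0.36 (adjusted p = 0.77) without the control tube of preparation 3.

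Against potassium, Ang II tubes were higher by 1.38 ± 0.08 for Sema4b and by 1.65 ± 0.17 for Rab7b. These 2 of 5 genes were called, against 3.09% of tested probe sets called as higher. Their adjusted p-values by limma were 6.2e-08 and 3.1e-05, and both calls held in all 21 alternatives. Low potassium signals chose the genes and favour such a difference, so nothing is read from this count or these p-values. At the other probe set of Rab7b the difference was 0.91 ± 0.31 (adjusted p = 0.13). There the Ang II signal was above that of potassium in 2 of 3 preparations. Slc16a9 was higher after Ang II than after potassium by 0.64 ± 0.25 (95% interval 0.09 to 1.18, adjusted p = 0.22) and Tnni1 by 0.81 ± 0.36 (0.04 to 1.58, adjusted p = 0.28), in 3 of 3 preparations each, and neither was called. The value of Tnni1 was 0.33 (adjusted p = 0.75) without the potassium tube of preparation 3, 0.42 (0.73) without preparation 3 and 0.47 (0.33) with a pseudocount of 64. Grm8 differed by -0.05 ± 0.42 (-0.95 to 0.85, adjusted p = 0.97), an interval too wide to show that the stimuli act alike. Ang II signals lay wholly above potassium signals for Sema4b, Rab7b and Slc16a9, and for 9.72% of all tested probe sets.

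**Figure D4:**
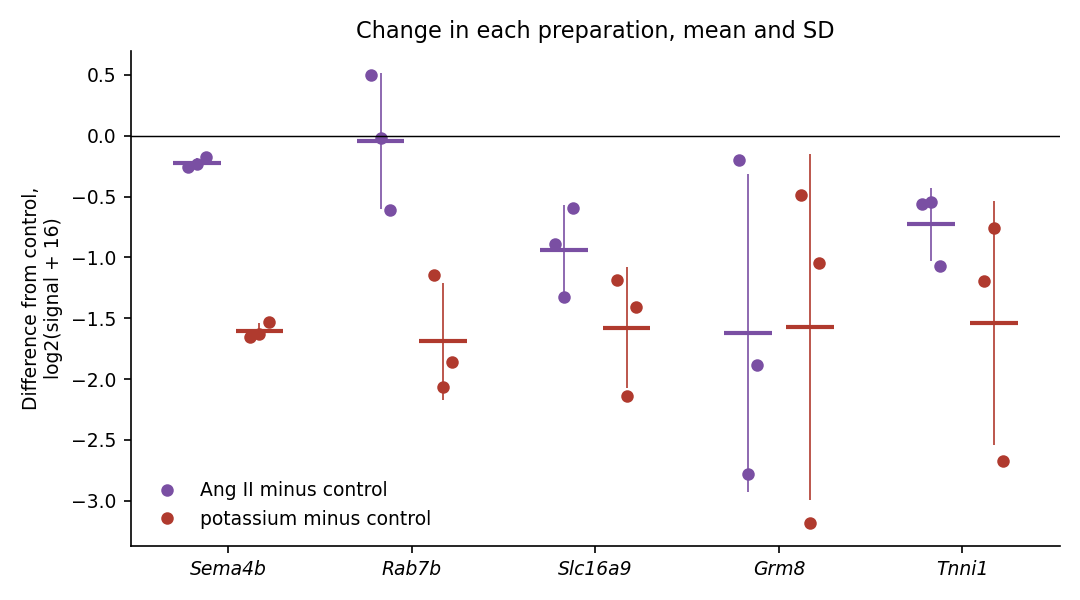
Difference from control on the log2(signal + 16) scale in each of the 3 preparations (points), with the mean (thick line) and SD (thin line), after Ang II and after potassium. The Sema4b points after potassium have an SD of 0.06, whereas those of Grm8 run from -0.49 to -3.18, and Rab7b after Ang II lies on both sides of 0.

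The relatives of each gene were taken from lists without the chosen genes. Their counts after potassium are read against the 5.36% of all tested probe sets called in either direction (2.58% lower and 2.78% higher), and with that share a few calls in lists of this size are no result about a list. Of 35 semaphorins, plexins and neuropilins with associated proteins, 31 were measured and 23 tested. After potassium 1 of them fell, Sema6c, a transmembrane semaphorin (-0.90 ± 0.24, adjusted p = 0.040), and none rose, with a median log2 change of 0.02 against -0.02 over all tested probe sets. The call of Sema6c ended in 11 of 20 alternative settings. Sema4g, of the same membrane-bound class as Sema4b, was at -1.0 ± 0.36 (adjusted p = 0.14), from 131 ± 67.8 to 56.0 ± 30.4 (SD, n = 3). Sema3f, a secreted semaphorin, was at 0.43 ± 0.14 (adjusted p = 0.11) and Dpysl2, a cytoplasmic mediator of semaphorin signals, at 0.18 ± 0.06 (adjusted p = 0.10).

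Among 62 Rab GTPases and proteins of late endosome trafficking, 53 were tested, of which 2 fell and 1 rose after potassium (median -0.03), a count near the 5.36% called over all tested probe sets. Rab32, which acts in the making of lysosome-related organelles, fell by 0.58 ± 0.13 on the log2 scale (adjusted p = 0.014), and Plekhm1, an adaptor that links Rab7 to lysosome fusion, fell by 0.43 ± 0.12 (adjusted p = 0.044). Rab3a, a GTPase of regulated secretion, rose by 0.80 ± 0.16 (adjusted p = 0.0077), and it also rose after Ang II (0.72 ± 0.16, adjusted p = 0.029). The calls after potassium ended in 8, 16 and 6 of 21 alternative settings for Rab32, Plekhm1 and Rab3a. Rab33a, a Golgi-associated GTPase, was at -0.33 ± 0.10 and was not called (adjusted p = 0.075).

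Of 25 monocarboxylate transporters and partners, 15 were tested, 1 rose and none fell after potassium (median 0.06), where 2.78% of all tested probe sets were called as higher and 2.58% as lower. The 1 was Slc16a1, the lactate and pyruvate transporter MCT1, which went from 1406 ± 16.5 in controls to 1758 ± 67.1 after potassium (log2 change 0.32 ± 0.08, adjusted p = 0.039) and to 1808 ± 192 after Ang II (0.35 ± 0.08, adjusted p = 0.039). Its call after potassium ended in 12 of 21 alternatives. Slc16a10, a carrier of aromatic amino acids, was at 0.58 ± 0.26 (adjusted p = 0.24), Ldha, a lactate dehydrogenase subunit, at 0.22 ± 0.07 (0.090) and Nptn, a chaperone of these transporters, at 0.13 ± 0.07 (0.34). Of the 15 tested genes of this list, 5 had a negative sign after potassium, the lowest at -0.23.

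Most glutamate receptor genes were dim. Of 43 genes of glutamate receptors and transporters 38 were measured but only 14 passed the filter, and after potassium 1 fell and none rose (median -0.01), where 2.58% of all tested probe sets were called as lower and 2.78% as higher. The vesicular glutamate transporter gene Slc17a6 fell from 130 ± 38.2 to 54.1 ± 18.5 (log2 change -1.06 ± 0.27, adjusted p = 0.031) and rose to 553 ± 67.7 after Ang II (1.99 ± 0.27, adjusted p = 5.8e-04). Its potassium mean lay under the filter level, a signal of 81.9. Slc17a6 was the only gene of this list called against the midpoint (2.52 ± 0.23, adjusted p = 1.4e-05), and its call after potassium ended in 9 of 20 alternatives. The scaffold gene Homer1 also rose after Ang II, by 0.45 ± 0.10 (adjusted p = 0.038). Over all tested probe sets 1.91% were called as higher against the midpoint and 1.66% as higher after Ang II against control. Slc1a4, a neutral amino acid carrier, was at -0.68 ± 0.21 after potassium (adjusted p = 0.073), Homer3 at -0.29 ± 0.14 (0.28) and Gnai2, an inhibitory G protein subunit, at 0.22 ± 0.11 (0.33).

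Of 40 troponin and sarcomere genes 39 were measured and 16 tested, and none was called after potassium or after Ang II by limma (median log2 change after potassium -0.03). Over all tested probe sets the called shares were 5.36% and 2.2%, so that the lack of calls is no result about this list. The cardiac form of troponin I, Tnni3, was at 0.44 ± 0.29 after potassium (adjusted p = 0.45), from 89.1 ± 21.3 to 127 ± 33.6 (SD, n = 3), a sign opposite to that of Tnni1. Mybpc2, a myosin-binding protein, was at -0.48 ± 0.27 (adjusted p = 0.37), the calcium store protein gene Casq2 at -0.24 ± 0.15 (0.40) and the muscle transcription factor gene Mef2c at 0.14 ± 0.09 (0.41).

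**Figure D5:**
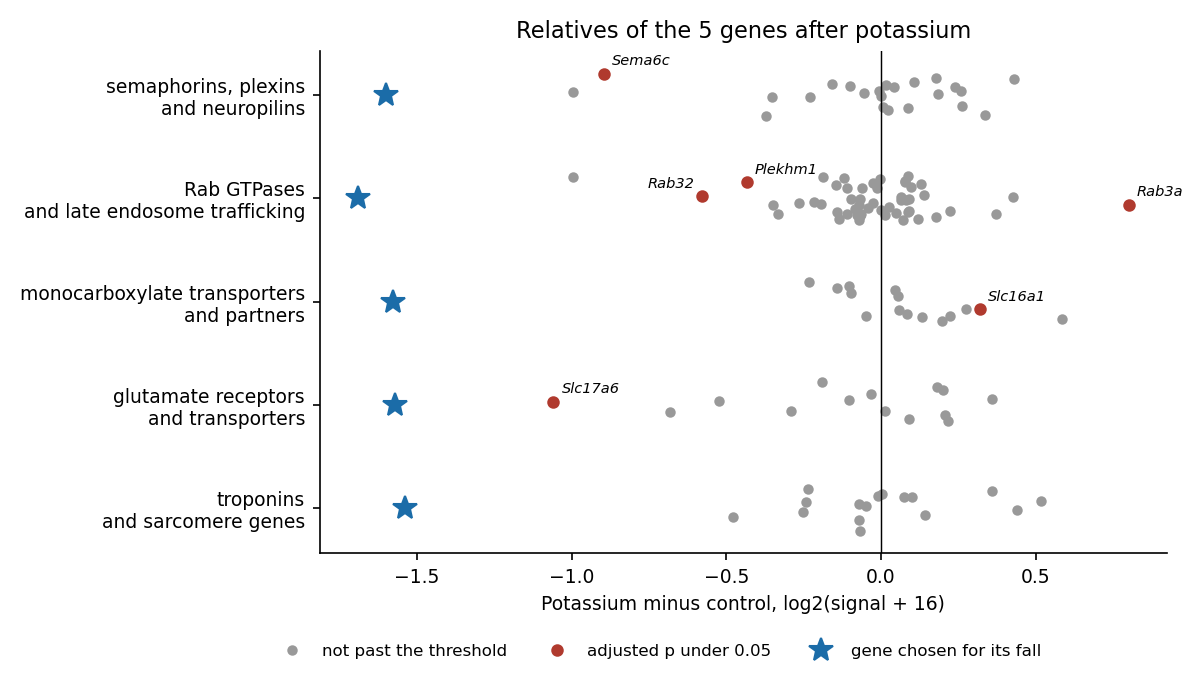
Difference between potassium and control on the log2(signal + 16) scale of each tested gene of 5 family lists (points, 1 probe set per gene, scattered vertically for legibility), with called genes in red and the gene chosen for its fall as a star. The stars lie between -1.54 and -1.69, and the relatives centre near 0 with 6 called, 4 lower and 2 higher.

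The profiles of the 5 genes over the 9 arrays were compared after centring each preparation, a description over arrays that share preparations and that includes the falls for which the genes were chosen. Sema4b and Rab7b had Pearson's r of 0.95 with each other, Sema4b and Slc16a9 0.84, and Sema4b and Grm8 0.47. Of all other named genes, those most like Sema4b were Fpgt (r = 0.996), Tpbg (0.993) and Ap3d1 (0.992), whose log2 differences after potassium were -0.57 ± 0.16, -0.75 ± 0.09 and -0.15 ± 0.06. Those most like Rab7b were Alg5 (0.986), Dusp7 (0.984) and Sp1 (0.983), with -0.11 ± 0.08, -0.42 ± 0.11 and -0.32 ± 0.07. For Slc16a9 they were Acer3 (0.993), Herc3 (0.993) and Ifnar2 (0.991), and Herc3 had the largest differences of these, -0.97 ± 0.13 after potassium and -0.53 ± 0.13 after Ang II. For Grm8 they were Cdx2 (0.995), Lrrc26 (0.993) and Flot1 (0.990), and for Tnni1 Orc4 (0.972), Zeb2 (0.971) and Mta2 (0.967). The likeness is one of shape and not of size.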

How the data were processed

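Transcript signals were measured in 9 tubes of rat zona glomerulosa cells. Each array was deposited by the authors as a linear intensity for every probe set, and the submitters' processing notes name GCOS, without a version. How background was treated and probes were summarised is not given in the sources used here. The trimmed mean of the deposited intensity (without 2% at each end) was 500.17 to 500.19 on every array, so the arrays had been scaled to a common mean. No detection calls were used.

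Of 31099 probe sets, 57 controls were left out. Symbols came from the platform annotation, updated through RefSeq genes of GRCr8: 20826 probe sets had 1 symbol, 436 several and 9780 none. Values were taken as log2(signal + 16) without further scaling, and the 18625 probe sets with a mean above the 40th percentile were tested. All arrays were fitted with limma 3.58.1 (R 4.3.3) with 3 groups, the preparation as a fixed block and an intensity trend, and p-values were adjusted by Benjamini-Hochberg over each contrast. The fit was tested on simulated data. Groups and replicate numbers came from the titles.

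Each preparation supplied 1 tube per group by the design text, which gives the pairing. Deviations from the group means correlated at 0.09 to 0.27 for the 9 pairs of arrays of a preparation and at -0.21 to 0.05 for the 18 others.

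The members, the gene lists, the rule for named genes and the tests were chosen with earlier results of these data known. Named were all probe sets of the 5 genes, up to 4 genes per family list with the smallest p after potassium (called genes up to 6), the largest falls, and the 3 genes most like each. Homer1, Myh1, Mybpc1, Akr1b7 and the markers Dab2, Wnt4, Kcnk9, Kcnj5 and Shh were named after their values were seen. A gene with several probe sets is shown by the tested one with the smallest p after potassium, a list gene by the one with the highest mean. Alternatives were pseudocounts of 1 and 64, no filter or one at the 60th percentile, no replicate block, no trend, 3 other scalings, and leaving out each preparation or array.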

Additional observations from a re-analysis of the deposited data

How the results depend on the processing

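With no replicate block, that is without the pairing by preparation, 506 probe sets were called for potassium against control (998 as reported), 210 for Ang II against the mean of control and potassium (465), 197 for Ang II against control (409) and 442 for Ang II against potassium (892). Without the variance trend the counts were 258, 45, 38 and 156, and scaling every array to the same median gave 556 for Ang II against potassium. Leaving out 1 array or preparation gave 432 to 977, 139 to 445, 143 to 454 and 275 to 1012 in the same order. Neither the block nor the trend can change a fitted log2 value in this balanced design. The block changed no call of the 5 genes, but without it no relative in the semaphorin, Rab and monocarboxylate lists was called after potassium.

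The signs of potassium against control held for all 5 genes in every setting that gave a value. Small values turned sign: Tnni1 against the midpoint with a pseudocount of 64 (-0.035) and from -0.20 to 0.23 when an array or preparation was left out, Rab7b for Ang II against control with scaling to the common median (0.078) and from -0.32 to 0.24, and Grm8 for Ang II against potassium from -0.57 to 0.34. None of these was called. That of Sema4b for Ang II against control shrank from -0.22 to -0.099 with scaling to the common median. The cause was not tested. With the filter at the 60th percentile Slc16a9, Grm8 and Tnni1 were not tested. Calls of relatives ranged from 0 to 2 for semaphorins, 0 to 3 for Rab GTPases, 0 to 1 for monocarboxylate transporters and for glutamate genes, and were 0 throughout for sarcomere genes. Dim probe sets limit what can be said of Grm8, Tnni1 and Slc16a9.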
